A study of Homo sapiens with 12 samples.

Results

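Serine is made in the cell from a glycolytic intermediate in 3 steps, catalysed in turn by PHGDH, PSAT1 and PSPH. Serine hydroxymethyltransferases (SHMT1 in the cytosol, SHMT2 in mitochondria) then pass a carbon unit from serine to folate, and the mitochondrial enzymes MTHFD2 and MTHFD1L carry that unit on towards formate, which feeds the synthesis of purines and thymidylate. ASNS makes asparagine, PCK2 is the mitochondrial phosphoenolpyruvate carboxykinase, and CBS uses serine to start transsulfuration. Several of these genes are known targets of ATF4, the transcription factor of the amino acid response.

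These 10 enzyme genes were followed by their symbols among the 16383 genes of the deposited table, and all 10 were found. PSAT1, PCK2, ASNS and CBS had been chosen by their higher normalized counts with palbociclib than with DMSO. Their values in any comparison that used palbociclib or DMSO libraries are therefore a description without a test. The other 6 genes were tested in every comparison.

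The cells were IMR90, an established wild-type line of human lung fibroblasts, sequenced after poly(A) capture in 4 groups of 3 libraries. Proliferating cells had no treatment, and no harvest day is given for them. The other 3 groups received 20 Gy of ionizing radiation over 10 min and were harvested on day 11 afterwards. They were given DMSO, 2 µM palbociclib (an inhibitor of the cell cycle kinases CDK4 and CDK6) or 2 µM ruxolitinib (an inhibitor of JAK kinases), with inhibitor doses on day 4, day 6, day 8 and day 10. The sample titles call the 3 irradiated groups senescent. Differences called "after irradiation" below compare irradiated cells given DMSO with proliferating cells. Radiation, DMSO, time of harvest and the loss of proliferation cannot be told apart in them. All groups come from this single line. The labels do not say whether replicates were separate cultures, so the p-values measure the spread between these libraries, which may be technical.

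Recovered reads ranged from 14106799 to 21762412 per library. All 10 fibroblast markers were detected in every library, with a summed level of 822420.2 to 854897.3 normalized counts in proliferating cells. That sum was 408919.4 to 419590.3 in DMSO libraries, 651681.0 to 683887.1 under palbociclib and 515852.3 to 520021.2 under ruxolitinib. The epithelial marker EPCAM reached at most 35.5 and CDH1 at most 18.8 normalized counts. CLDN4, the highest of the 5 epithelial markers, ran from 21.3 to 74.3, with a mean of 66.4 in proliferating cells and 26.2 under palbociclib. Of the endothelial markers, PECAM1, CDH5, VWF and KDR stayed at or below 35.1, and only TEK was high, at 1675.8 to 4359.1. Of the 5 immune markers, 4 stayed below 10 everywhere (PTPRC at most 9.90). CD14 reached 29.7, with means of 4.03 in proliferating cells, 28.2 in DMSO libraries, 13 under palbociclib and 16 under ruxolitinib. MKI67, a proliferation marker, had a mean of 13062.1 normalized counts in proliferating cells. Its mean was 1010.7 in DMSO libraries, 82.5 under palbociclib and 700.2 under ruxolitinib. The part of these differences in the results below was not tested. Libraries A126 (proliferating) and A120 (palbociclib) lay farthest from the others of their group. In bulk RNA, fewer cells expressing a gene and less RNA per cell cannot be told apart.

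PSAT1 lies on chromosome 9 (hg38, 78297125 to 78330093, plus strand). The 250 bases before its start are shown because PSAT1 had the largest described rise with palbociclib of the 10 genes. They are taken from RefSeq (GRCh38.p14, chr9:78296875-78297124, plus strand, 5′ to 3′), with the letters CCAAT in capitals.
PSAT1: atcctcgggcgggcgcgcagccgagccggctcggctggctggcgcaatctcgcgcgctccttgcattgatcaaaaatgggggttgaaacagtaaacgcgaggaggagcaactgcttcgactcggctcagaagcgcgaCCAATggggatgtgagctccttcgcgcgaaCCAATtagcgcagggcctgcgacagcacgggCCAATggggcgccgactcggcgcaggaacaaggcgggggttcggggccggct
CCAAT, searched on both strands and chosen after these letters had been seen, occurs at least once in 32.0% of the 35116 promoter windows of this length and at least 3 times in 2.9%. PSAT1 has 3, starting 113, 83 and 52 bases before the gene's start.

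RefSeq held promoter entries for 8 of the 10 genes, without PSPH and SHMT2. The amino acid response letters TGATGNAA, bound by ATF4 with its partners, were searched on both strands of windows from 250 bases before to 50 after each start. They occurred in 3.6% of all windows and in 2 of the 8 genes. A share of windows and a count of genes are unlike measures, because MTHFD1L had 4 windows, CBS 3 and ASNS 2. The 30-base stretches around them are shown with the matching letters in capitals. The ASNS match is on the minus strand of chromosome 7 (97872469 to 97872476). It begins 68 bases before a RefSeq start, of 2 held for this gene, and lies inside the GENCODE span of ASNS (97851677 to 97872542). The MTHFD1L match is on the plus strand of chromosome 6 (150866357 to 150866364).
ASNS: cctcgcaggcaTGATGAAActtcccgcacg
MTHFD1L: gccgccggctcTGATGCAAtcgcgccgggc
A match is a description of letters. The E-box CACGTG, in 7.3% of windows, was found in MTHFD1L, and the antioxidant response letters TGACNNNGC, in 13.3% of windows, in MTHFD2 and CBS.

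All 3 enzymes of serine synthesis were lower in irradiated cells given DMSO than in proliferating cells. PHGDH, which catalyses the first step (chromosome 1, 119648411 to 119744218), had 3319.3, 3848.4 and 3363.3 normalized counts in proliferating cells and 639.4, 649.9 and 572.4 with DMSO. Palbociclib libraries held 1022.5, 1285.1 and 1179.6, and ruxolitinib libraries 529.3, 509.6 and 549.5. Every palbociclib library was above every DMSO library and below every proliferating one, and ruxolitinib libraries were below all DMSO libraries. On the log2(value + 1) scale PHGDH fell by 2.50 (SE 0.08, limma adjusted p = 5.82e-13) after irradiation. It was 0.90 higher with palbociclib than with DMSO (SE 0.08, limma adjusted p = 4.98e-07). Palbociclib against proliferating cells gave -1.60 (limma adjusted p = 8.39e-11).

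PSAT1, the aminotransferase of the second step, had 3414.8, 3435.8 and 3502.4 normalized counts in proliferating cells and 969.1, 987.3 and 886.9 with DMSO. With palbociclib it had 3336.5, 3315.8 and 3387.9, and with ruxolitinib 770.0, 721.2 and 795.0. The palbociclib libraries sat just under the proliferating ones, without overlap, and far above both other irradiated groups. As a description, its mean with palbociclib was 3.53-fold that with DMSO, and 97.0% of that in proliferating cells. Scaled to the same upper quartile, the log2 difference from proliferating cells turned from -0.04 to 0.05. The only test of PSAT1, ruxolitinib against proliferating cells, gave a log2 difference of -2.18 (SE 0.05, limma adjusted p = 2.68e-14). That SE pools the spread within all 4 groups, including the palbociclib and DMSO libraries used in the choice. Of the 2206 bases of PSAT1 exons, 15.3% of 31-base words also occur in other genes, 9.88% in the pseudogene PSAT1P3, so its counts are uncertain to that extent.

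PSPH, the phosphatase that releases serine (chromosome 7, 56011051 to 56051604), had 551.0, 666.5 and 562.8 normalized counts in proliferating cells and 283.1, 304.2 and 297.2 with DMSO. It had 415.0, 481.7 and 523.2 with palbociclib and 290.9, 282.7 and 287.8 with ruxolitinib. DMSO and ruxolitinib libraries overlapped, and palbociclib libraries lay between them and the proliferating ones. PSPH fell by 1.00 on the log2 scale after irradiation (limma adjusted p = 9.02e-08) and was 0.68 higher with palbociclib than with DMSO (limma adjusted p = 2.75e-05), or 0.45 with equal totals. Against proliferating cells the palbociclib difference was -0.33 (limma adjusted p = 0.00484), and with quantile normalization -0.14 (limma adjusted p = 0.184). About 17.2% of the 31-base words of all its annotated transcripts are shared with other genes.

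**Figure D1:**
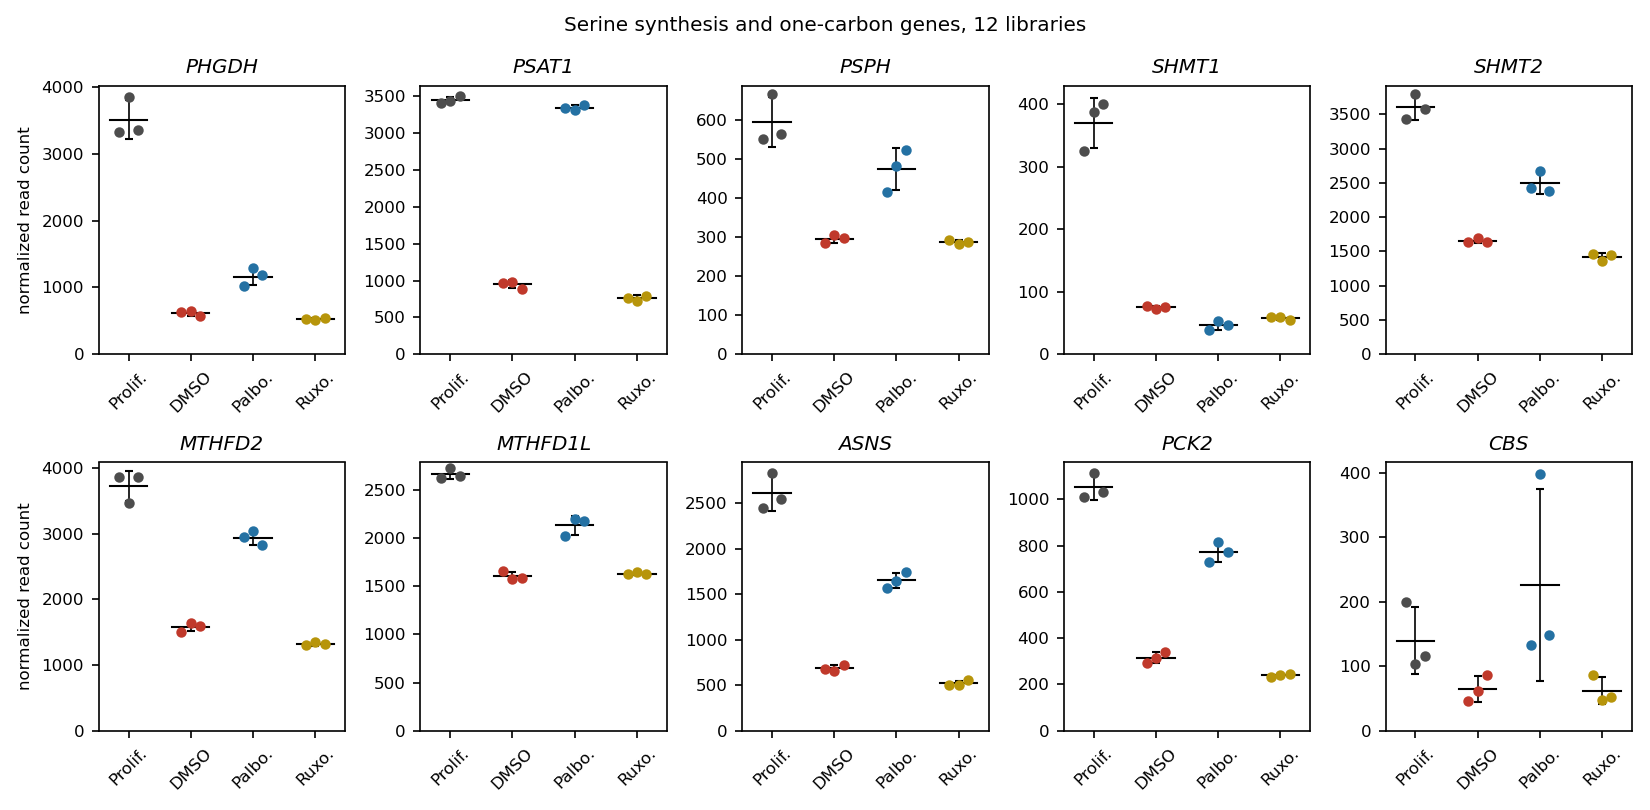
Normalized read count (vertical axis, from 0) of each of the 10 genes in the 3 libraries of each group; points are libraries, bars the mean and error bars the SD. PSAT1 with palbociclib sits beside the proliferating cells, PHGDH stays well below them, and SHMT1 is lowest with palbociclib.

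The 2 serine hydroxymethyltransferases moved in opposite directions with palbociclib. Cytosolic SHMT1 (chromosome 17, 18327860 to 18363563) had 324.8, 387.1 and 399.9 normalized counts in proliferating cells, 77.2, 72.2 and 76.3 with DMSO, 38.7, 52.5 and 47.1 with palbociclib, and 59.4, 60.3 and 55.0 with ruxolitinib. No group overlapped another, and palbociclib libraries were the lowest. SHMT1 fell by 2.28 after irradiation on the log2 scale (limma adjusted p = 4.78e-10) and was lower again with palbociclib than with DMSO, at -0.70 (SE 0.14, limma adjusted p = 0.000552), and at -0.37 with quantile normalization (limma adjusted p = 0.0351). Palbociclib against ruxolitinib gave -0.34 (limma adjusted p = 0.0561), which passed the threshold in 5 alternatives, among them without A120 (-0.44, limma adjusted p = 0.025). With quantile normalization this difference shrank to -0.08, and leaving out single libraries gave -0.44 to -0.22.

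Mitochondrial SHMT2 (chromosome 12, 57229573 to 57234935) had 3438.6, 3792.9 and 3575.7 normalized counts in proliferating cells and 1634.2, 1691.7 and 1644.3 with DMSO. It had 2421.3, 2672.1 and 2382.4 with palbociclib and 1459.8, 1357.8 and 1447.3 with ruxolitinib. No group overlapped another, with palbociclib between the proliferating and DMSO libraries. SHMT2 fell by 1.12 on the log2 scale after irradiation (limma adjusted p = 7.96e-11) and was 0.59 higher with palbociclib than with DMSO (limma adjusted p = 8.23e-07), or 0.36 with equal totals. Per kilobase of transcript the ratio of SHMT2 to SHMT1 was 11.5 ± 0.965 (SD, n = 3) in proliferating cells. It was 25.8 ± 1.42 in DMSO libraries, 64.0 ± 7.97 under palbociclib and 28.7 ± 2.22 under ruxolitinib. The palbociclib ratios lay above all DMSO ratios (exact permutation test, two-sided, p = 0.10, the smallest that 3 against 3 allows).

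MTHFD2, the mitochondrial dehydrogenase and cyclohydrolase (chromosome 2, 74186172 to 74217565), had 3852.7, 3466.8 and 3854.7 normalized counts in proliferating cells and 1507.5, 1646.7 and 1589.9 with DMSO. Palbociclib libraries had 2941.5, 3031.1 and 2826.5, and ruxolitinib libraries 1299.3, 1353.3 and 1319.2. The groups did not overlap. It fell by 1.23 after irradiation on the log2 scale (limma adjusted p = 1.86e-11) and was 0.89 higher with palbociclib than with DMSO (limma adjusted p = 5.70e-09).

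MTHFD1L, which releases formate (chromosome 6, 150865679 to 151101887), had the smallest fitted differences of the 6 tested genes after irradiation and with palbociclib. It had 2621.0, 2723.8 and 2638.7 normalized counts in proliferating cells, 1653.0, 1578.0 and 1581.8 with DMSO, 2016.3, 2193.7 and 2179.8 with palbociclib, and 1621.0, 1645.1 and 1623.3 with ruxolitinib. Palbociclib libraries lay between the proliferating and the DMSO libraries, while DMSO and ruxolitinib overlapped. It fell by 0.73 after irradiation on the log2 scale (limma adjusted p = 2.19e-09) and was 0.41 higher with palbociclib than with DMSO (limma adjusted p = 7.87e-06). With all libraries scaled to the same total, the palbociclib difference was 0.18 (limma adjusted p = 0.00835).

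ASNS (chromosome 7, 97851677 to 97872542, minus strand) had 2450.8, 2832.5 and 2546.3 normalized counts in proliferating cells and 675.1, 661.8 and 725.0 with DMSO. It had 1571.4, 1649.7 and 1741.0 with palbociclib and 507.7, 500.6 and 554.0 with ruxolitinib. The groups did not overlap, and as a description the palbociclib mean was 240.7% of the DMSO mean. Against proliferating cells, ruxolitinib gave -2.32 on the log2 scale (SE 0.07, limma adjusted p = 1.19e-13). The annotated transcripts of ASNS together hold 5077 words of 31 bases. Of these, 48.4% occur in another annotated gene, and 3.07% in the pseudogene ASNSP1. Most (2388 words, 47.0%) are in a long noncoding model on the same strand of the same locus. The MANE Select transcript of ASNS has only 2385 bases, and its own share was not computed and may be larger. How reads matching both ASNS and the noncoding model were counted is not given in the sources used here, so the level of ASNS is uncertain.

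PCK2 (chromosome 14, 24094053 to 24110598) had 1010.6, 1114.6 and 1029.4 normalized counts in proliferating cells and 294.0, 314.9 and 340.0 with DMSO. It had 727.1, 816.6 and 771.0 with palbociclib and 232.2, 242.2 and 243.6 with ruxolitinib. No groups overlapped, and as a description the palbociclib mean was 2.44-fold the DMSO mean. Ruxolitinib against proliferating cells gave -2.13 (SE 0.07, limma adjusted p = 7.57e-13).

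CBS (chromosome 21, 43053191 to 43076943) was the least even of the 10. It had 199.2, 104.2 and 116.2 normalized counts in proliferating cells, 46.5, 61.6 and 86.7 with DMSO, 132.8, 398.5 and 149.2 with palbociclib, and 86.4, 47.7 and 52.3 with ruxolitinib. The value of 398.5 came from A120. All palbociclib libraries were above all DMSO libraries but overlapped the proliferating ones. The described log2 difference between palbociclib and DMSO was 1.65, and 1.15 without A120. Against proliferating cells, ruxolitinib gave -1.15 (SE 0.37, limma adjusted p = 0.0105), and without A125 -0.86 (limma adjusted p = 0.0635). Its annotated transcripts together hold 6934 words of 31 bases, and 2434 of them (35.1%) also occur in a single other annotated gene model. The MANE Select transcript of CBS has only 2495 bases. The share of that transcript was not computed and may be larger, so the counts of CBS are uncertain.

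After irradiation, all 6 tested genes were called lower, where 39.3% of the 11242 genes tested were (33.0% were called higher). The 6 genes did not overlap between the groups, and neither did 75.1% of all genes. Their median log2 difference was -1.18, beside -0.05 over all genes. With palbociclib against DMSO, 5 of the 6 were called higher, where 26.0% of all genes were, and 1 was called lower, where 22.3% were. None of the 6 overlapped, and 54.8% of all genes did not. Their median was 0.63, beside 0.02 over all genes. The irradiation and palbociclib comparisons share the DMSO libraries. Giving every library the same total shifted the log2 difference of the median gene by 0.23 after irradiation and by -0.23 with palbociclib. Of the genes called, the share called higher was 45.7% after irradiation and 53.9% with palbociclib. These shares were 64.0% and 15.4% with equal totals, and 58.1% and 41.7% with equal upper quartiles. The calls of the 6 genes in these comparisons kept their direction and threshold under all 24 alternatives.

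**Figure D2:**
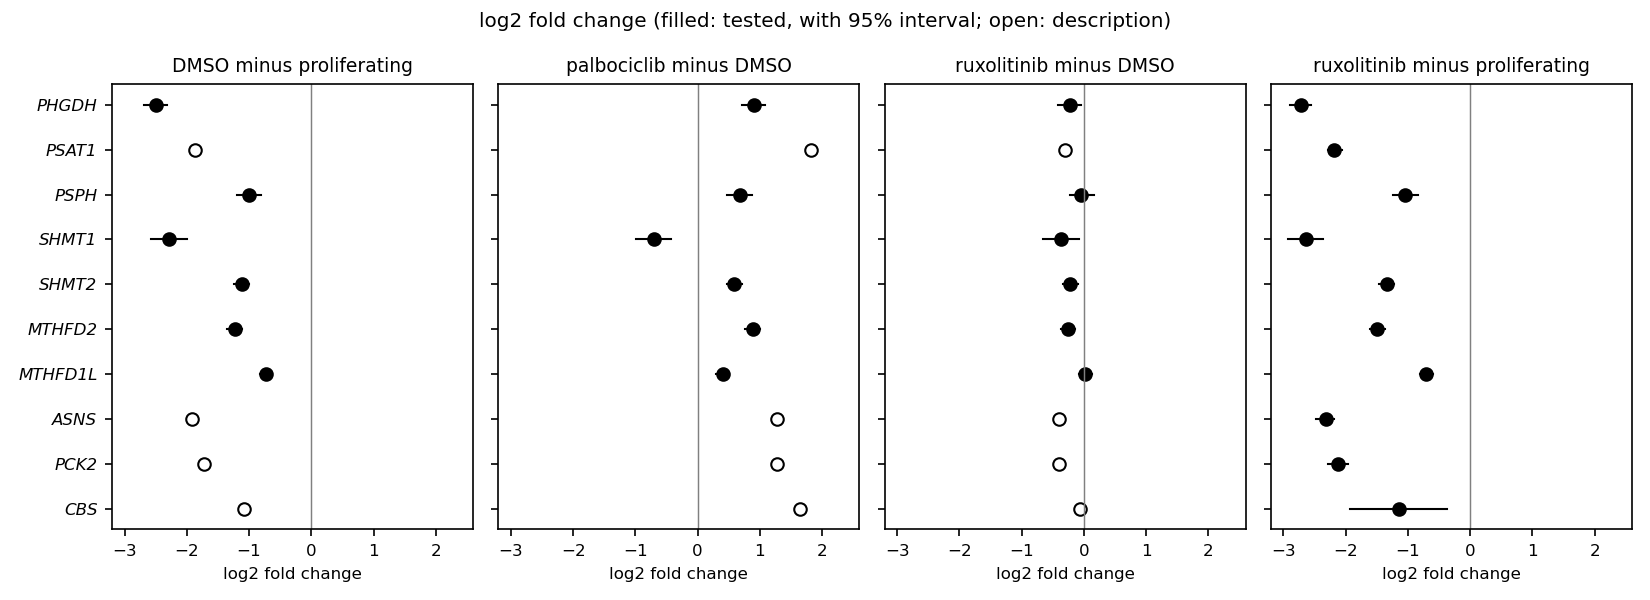
Log2 fold change of the 10 genes (horizontal axis) in 4 comparisons; filled points were tested and carry their 95% interval, open points are descriptions. With palbociclib against DMSO, SHMT1 is the only gene of the 10 to the left of 0, at -0.70.

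With ruxolitinib against DMSO, 2 of the 6 tested genes passed the threshold. MTHFD2 (-0.26, limma adjusted p = 0.0143) and SHMT2 (-0.22, limma adjusted p = 0.0374) were called lower, where 3.42% of all genes were, and 0 were called higher, where 1.10% were. Groups did not overlap for 4 of the 6, as for 31.9% of all genes. Leaving out single DMSO or ruxolitinib libraries ended the MTHFD2 call 4 times (without A117, A118, A122 or A124, with limma adjusted p up to 0.0855). The SHMT2 call ended without any 1 of the 6 libraries compared (limma adjusted p up to 0.187). With all libraries kept, the SHMT2 call also ended at the same upper quartile (limma adjusted p = 0.0777) and without trended variances (limma adjusted p = 0.0827). PHGDH was at -0.23 (limma adjusted p = 0.172). It passed the threshold when only those 2 groups were fitted (limma adjusted p = 0.0114) and without A120 and A126 (limma adjusted p = 0.0153). SHMT1 was at -0.36 (limma adjusted p = 0.175). The 95% interval of the difference ran from -0.23 to 0.16 for PSPH and from -0.08 to 0.13 for MTHFD1L, on the log2 scale.

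Compared directly at the same dose and days, palbociclib gave higher levels than ruxolitinib for 5 of the 6 tested genes, where 22.8% of all genes were called higher, and 0 were called lower, where 17.6% were. All 6 were without overlap, as were 51.8% of all genes. Of the genes called, 56.4% were higher, against 15.7% with equal totals and 38.7% with equal upper quartiles. The log2 differences were 1.13 for PHGDH, 0.71 for PSPH, 0.81 for SHMT2, 1.15 for MTHFD2 and 0.38 for MTHFD1L. Against proliferating cells, all 6 were called lower with palbociclib, where 38.6% of all genes were and 35.2% were called higher. All 6 were without overlap there, as were 70.9% of all genes. With ruxolitinib all 10 were called lower than in proliferating cells, where 39.5% of all genes were and 32.6% were called higher, and all 10 were without overlap, as were 76.2% of all genes. In this comparison 45.2% of called genes were higher, against 61.6% with equal totals and 58.8% with equal upper quartiles.

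The genes differed in how far palbociclib libraries lay from DMSO towards proliferating cells. On the scale of normalized counts, PSAT1 stood at 95.8% of that distance, MTHFD2 at 63.1%, PCK2 at 61.9%, PSPH at 59.8%, ASNS at 50.3%, MTHFD1L at 49.7%, SHMT2 at 42.9% and PHGDH at 18.8%. SHMT1 stood at -9.9%, on the far side of DMSO. CBS ran from 90.5% to 445.0% over its 3 libraries. PSPH ran from 40.2% to 76.5%, MTHFD2 from 58.1% to 67.6% and PCK2 from 55.9% to 68.1%. ASNS ran from 46.0% to 54.8%, MTHFD1L from 39.0% to 55.8% and SHMT2 from 37.3% to 52.2%. PSPH overlapped each of these, MTHFD2 overlapped PCK2, and ASNS, MTHFD1L and SHMT2 overlapped, so their order is not settled. These percentages are descriptions.

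Per kilobase of the MANE Select transcript, PHGDH was the most abundant of the 10 in proliferating cells at 1881.2 ± 157.3 (SD, n = 3), followed by SHMT2 at 1670.1 ± 82.8 and PSAT1 at 1564.4 ± 20.7. MTHFD2 and MTHFD1L overlapped there. With palbociclib PSAT1 came first at 1517.1 ± 16.8, ahead of SHMT2 at 1155.3 ± 72.9, while ASNS, MTHFD2 and PHGDH overlapped. The ratio of PSAT1 to PHGDH was 0.835 ± 0.0697 in proliferating cells and 2.46 ± 0.290 with palbociclib. This order depends on the length used. The MANE length was chosen after values per union of exons had been seen, and with the union the ratio was 4.11 in proliferating cells and 12.1 with palbociclib.

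**Figure D3:**
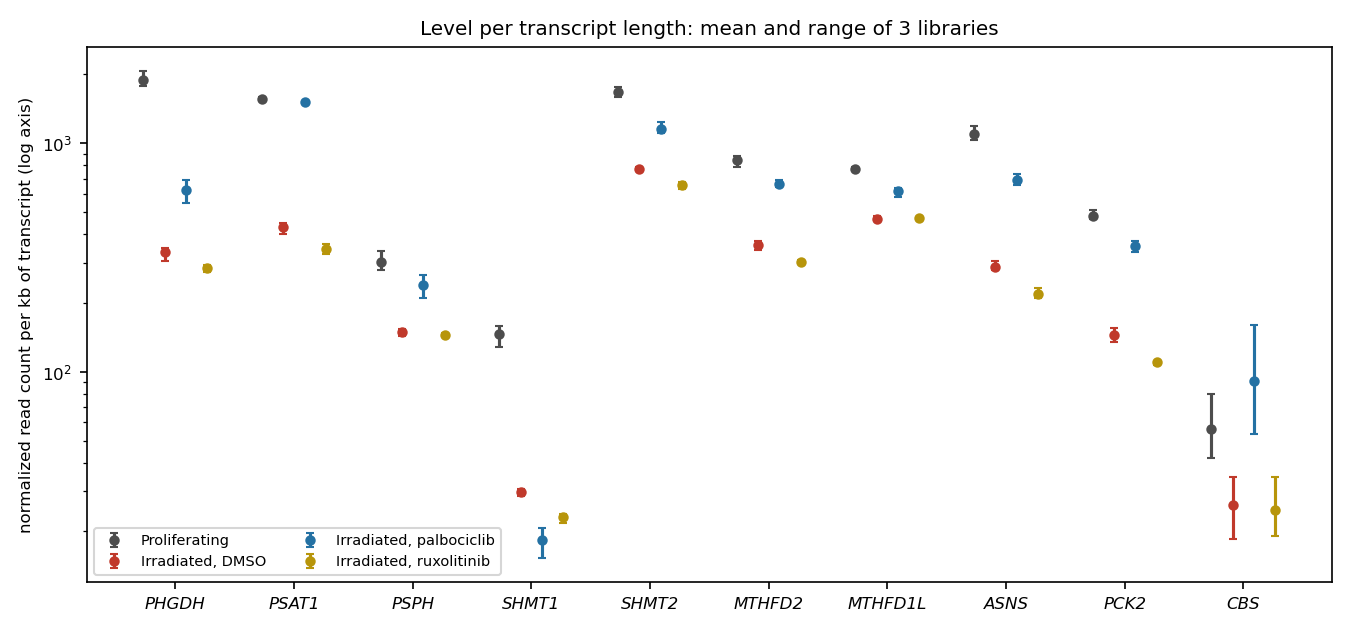
Normalized count per kilobase of MANE Select transcript (log axis) for the 10 genes in each group; points are means of 3 libraries and lines run from the lowest to the highest library. CBS and SHMT1 are lowest in every group, and PSAT1 is highest with palbociclib.

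Over the 12 libraries, which share the 4 group means, the log2 levels of ASNS and PCK2 were the most alike of the 10 (Pearson r = 1.0 after rounding). SHMT1 and CBS were the least alike (r = 0.14). SHMT1 and PSAT1 had r = 0.44. ASNS, PCK2, CBS and PSAT1 were chosen for their rise with palbociclib, and these correlations use the same libraries. Likeness among them is therefore partly built in, and all values of r here are descriptions. Of 9255 genes ranked, those most like PSAT1 were SLC7A5 (r = 0.997), an amino acid transporter, CNN1 (0.995), a calponin of smooth muscle, YARS1 (0.990), the tyrosyl-tRNA synthetase, GNB1 (0.988), a G protein subunit, and ACTA2 (0.988), smooth muscle actin.

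Carriers bring serine, glycine and related amino acids across membranes. The whole-table shares to read each list against are 39.3% lower and 33.0% higher after irradiation, and 26.0% higher and 22.3% lower with palbociclib. After irradiation 6 of 7 carriers were called lower and 1 higher. With palbociclib against DMSO 5 were called higher and none lower at the deposited scaling (4 higher and 1 lower at the same total). The glycine transporter SLC6A9 went from 230.7 ± 31.6 normalized counts with DMSO to 385.2 ± 38.2 with palbociclib (log2 difference 0.74, limma adjusted p = 4.81e-05). It was 149.5 ± 13.4 with ruxolitinib (log2 difference -0.62, limma adjusted p = 0.00269). SLC1A4 rose by 0.71 and SLC1A5 by 0.65 with palbociclib.

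Folate genes outside the 10 enzymes were called in both directions. Of 11 tested of 16 (MTHFD2L and ALDH1L2 were among those not analysed here), 8 were called lower and 2 higher after irradiation, beside 39.3% and 33.0% of all genes. With palbociclib 3 were called higher and 2 lower, shares near the 26.0% and 22.3% of all genes. At the same total 0 were higher and 5 lower, and without A118, or without A120 and A126, 4 were lower. TYMS, the thymidylate synthase, had 1508.7 ± 83.4 normalized counts in proliferating cells, 376.7 ± 16.1 with DMSO and 63.4 ± 6.77 with palbociclib, a further log2 difference of -2.56 (limma adjusted p = 4.01e-12).

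In purine synthesis, 11 of 13 genes were called lower and 1 higher after irradiation, beside 39.3% and 33.0% of all genes, with PFAS at -1.95, PAICS at -1.33 and GMPS at -1.32 on the log2 scale. With palbociclib 6 were called higher and 2 lower, beside 26.0% and 22.3% of all genes, but 2 higher and 6 lower at the same total. The 6 higher became 4 without A116, A118 or A120, 5 without A117 or A121, and 7 without A119. The 2 lower became 1 without A117, A118, A121, A122, A123 or A124. PRPS1, which makes the activated ribose, was 0.72 higher (limma adjusted p = 4.31e-08) and PRPS2 lower at -0.36 (limma adjusted p = 0.00294). Of 12 methionine cycle and transsulfuration genes tested, 3 were called higher and 4 lower with palbociclib, near the 26.0% and 22.3% of all genes (0 higher and 7 lower at the same total). The 4 lower became 1 without A116, A117 or A119 and 2 without A120 or A121. Leaving out single libraries gave 2 to 3 higher. AHCY, which hydrolyses S-adenosylhomocysteine, was 0.31 higher (limma adjusted p = 0.00107). Of 3 genes tested of the glycine cleavage system, GCSH and DLD were called higher with palbociclib at the deposited scaling, at 0.33 and 0.19, where 26.0% of all genes were. Without A116 or A120 only 1 of the 3 was, and at the same total 0 were.

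Of 30 other genes linked to ATF4, 20 were called lower and 6 higher after irradiation, beside 39.3% and 33.0% of all genes. With palbociclib 21 were called higher and 6 lower, beside 26.0% and 22.3% of all genes (15 higher and 8 lower at the same total). Their median log2 difference with palbociclib was 0.36, beside 0.02 over all genes. ADM2 (1.88) and NUPR1 (1.31) were higher with palbociclib. ATF3, a stress-induced transcription factor, went the other way, from 95.4 ± 7.27 normalized counts in proliferating cells to 1152.3 ± 15.8 with DMSO and 197.9 ± 3.73 with palbociclib. With ruxolitinib 9 were called lower and 0 higher, beside 3.42% and 1.10% of all genes. Those lower included ATF3 (-0.79), TRIB3 (-0.60) and WARS1 (-0.43). The 9 became 5 without A117, A122 or A124, and without A120 and A126 there were 11 lower and 2 higher.

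**Figure D4:**
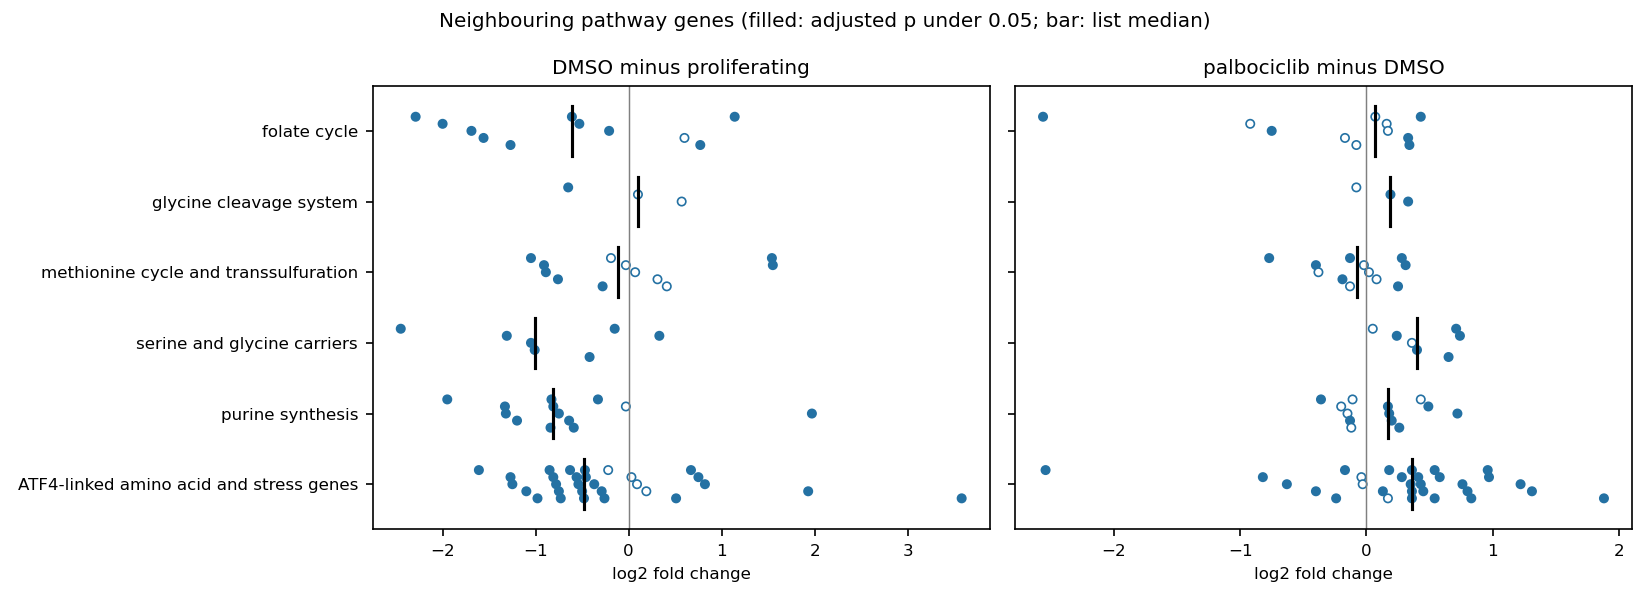
Log2 fold change of each tested gene in 6 lists after irradiation with DMSO and with palbociclib against DMSO; filled points have a limma adjusted p under 0.05 and bars mark list medians. The carriers and the ATF4-linked genes have medians of 0.40 and 0.36 with palbociclib, whereas the folate list has 0.07.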

How the data were processed

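The authors deposited 1 table of normalized counts (a signal that is never negative) per gene for 12 libraries. Per the submitters' processing notes the tools were Trimmomatic 0.38.1, HISAT2 2.2.1, featureCounts 2.0.3, FastQC 0.74, MultiQC and DESeq2 2.11.40.8, with hg38. The annotation and strand setting are not given in the sources used here. All 160380 values above 0 were whole multiples of 1 read (tolerance 0.01), so reads were recovered. In A116 a read was worth 0.990, too close to 1 for that column alone to tell reads from normalized values. Genes with a mean of at least 10 (11242) were tested on log2(value + 1) with limma 3.58.1 (R 4.3.3), in 1 model of the 4 groups with trended variances and Benjamini-Hochberg adjustment, and called at an adjusted p under 0.05. Fold changes on this scale understate changes of low genes. edgeR 4.0.16 and DESeq2 1.42.0 on recovered reads were alternatives. The code was checked on simulated data. Gene positions and lengths came from GENCODE (hg38), promoters from RefSeq (GRCh38.p14). Members and gene lists were chosen with earlier results of these data known. Of each list, up to 3 called genes with the largest change and up to 1 not called could be named, if the group with the higher level averaged 100 normalized counts or more. MTHFD2, SHMT1 and SHMT2 overlap exons of genes on the opposite strand, whose reads cannot be told apart without strand. A gene that this rule would name is not reported here.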

Additional observations from a re-analysis of the deposited data

How the results depend on the processing

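Across 24 alternatives, 938 of the values of the 40 tested results stayed on the same side of the threshold with the same direction, 14 lost a call, 7 gained one and 1 turned sign. The last was MTHFD1L with ruxolitinib against DMSO, at -0.0021 with libraries scaled to the same total. Among described values, PSAT1 with palbociclib against proliferating cells turned to 0.05 at the same upper quartile. CBS in that comparison turned from 0.57 to -0.11 without A120 and A126. With ruxolitinib against DMSO, CBS turned from -0.07 to as much as 0.16, without A118. The 508 genes called with ruxolitinib against DMSO became 1841 when only those 2 groups were fitted and 1325 without A120 and A126, an alternative chosen after seeing the data. Leaving out 1 library at a time gave 261 (without A122) to 727 (without A120), and 276 to 295 without A116, A117, A118, A123 or A124. The cause was not tested. With 1 library fewer, the remaining libraries share the spread of all groups. No paired analysis was possible because the columns of the deposited table carry no replicate number. The 3 libraries per group limit the precision, and CBS and SHMT1 rest on the fewest reads.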
